A study of Mus musculus with 20 samples.

Results

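Livers of non-exercised mice fed a high-fat diet were compared with livers of non-exercised mice fed a normal diet, gene by gene across the genome. Of the 20 libraries of the series, 8 entered the comparison, chosen by their titles alone: 4 from the normal diet and 4 from the high-fat diet, the latter from pieces titled non-tumour. All were male wild-type mice of a strain the labels spell C56BL/6, killed at 35 weeks of age. Every group, controls included, had been painted on the back on postnatal day 4 to 5 with 50 µL of 0.5% DMBA, a polycyclic carcinogen, in acetone. The normal diet (CE-2) supplied 12 kcal% fat, 29 kcal% protein and 59 kcal% carbohydrate, and the high-fat diet (D12492) supplied 60, 20 and 20 kcal% of these. Mothers and pups received the diet after the painting, weaning was at 4 weeks, and the obese mice used weighed over 45 g at 35 weeks. By its title the series asks how exercise acts on circadian genes and on the turnover of c-Myc and E2F1, and the diet comparison sets obese, non-exercised mice against mice on the normal diet.

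Limits of the groups come from the labels. Tumour samples of the same arm carry the same mouse numbers as the high-fat pieces, so the high-fat livers bore tumours elsewhere, whereas the normal-diet samples are labelled only as liver; diet and tumour-bearing cannot be told apart. The labels give neither the killing day nor the clock time of the mice on the normal diet. Nothing in the labels beyond the mouse numbers says that the samples of a group are separate animals, so the p-values speak only of how these samples vary. Diets differed in protein and carbohydrate as well as fat, and only transcripts were measured. In bulk liver, fewer cells of a type and less RNA per cell cannot be told apart.

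Hepatocytes make most plasma proteins, clear drugs and steroids, store glycogen, and turn dietary carbohydrate and fat into lipid that is stored or exported. Feeding rodents a diet rich in fat is known to load hepatocytes with lipid droplets and to bring macrophages and matrix into the liver. Sex-dependent liver genes, such as major urinary proteins in male mice, are known to follow the pattern of growth hormone secretion.

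The 8 libraries held 16471378 to 18826889 counts each. Of the 4 normal-diet libraries, library 2 stood apart: its log2 CPM (counts scaled to library size) correlated with the other normal-diet libraries at 0.983 to 0.984, against 0.99 among those, and it had the largest loading (0.811) on the second principal component. It also differed in single genes chosen after their values were seen. Cyp4a14, a fatty acid hydroxylase induced by fasting, stood at 2135 CPM in that library and at 87.9 to 183 CPM in the other normal-diet libraries, and Srebf1, a regulator of lipid synthesis, stood at 63.2 against 303 to 357 CPM. Neither was called between the diets, and the log2 fold change of Cyp4a14 went from -0.33 to 2.00 without that library. Among high-fat libraries, library 2 had the lowest level of macrophage markers and library 3 the highest level of B cell, T cell, NK cell and neutrophil markers. Results that rest on one of these libraries are given with and without it. Gene values are CPM on scaled library sizes, and changes are log2 fold changes, high-fat over normal diet, ± SE from edgeR's quasi-likelihood fit of all 5 groups. Adjusted p-values come from the same fit, by the Benjamini-Hochberg method across every gene tested, and "rose", "fell" and "called" are used only of genes with an adjusted p under 0.05.

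Of 14428 genes tested, 3740 (25.9%) were called, 2025 higher (14%) and 1715 lower (11.9%). Upper-quartile scaling, which moved the log2 fold changes by a median of 0.07, gave 68.8% of calls as higher, against 54.1% here. The rises were larger than the falls: the median log2 fold change was 1.08 among genes called higher and -0.46 among genes called lower. At least a 2-fold change was seen in 1100 genes called higher (7.62%) and 311 called lower (2.16%), and at least an 8-fold change in 124 and 56. High-fat libraries lay wholly above the normal-diet libraries for 16.8% of genes tested and wholly below them for 16.3%. Genes named below for large folds, small p or large CPM differences were taken only from those. Their lack of overlap is therefore not a further result.

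Rises and falls lay at different levels of expression. Among genes with a mean of 1 to 10 CPM over the 20 libraries, 21.8% were called higher and 4.83% lower, whereas among genes at 1000 CPM or more 4.72% were called higher and 27.4% lower. Summed over called genes, the falls came to -115900 CPM and the rises to 28840 CPM. The 10 largest falls held 35.34% of the loss. These CPM are on scaled library sizes, so their totals need not be equal between the diets. The excess of falls over rises is therefore not a measure of lost transcript, and the part of the scaling in it was not tested. The number of genes with at least 5 counts was 14301.5 ± 137 (SD, n = 4) on the normal diet and 15038.5 ± 283 on the high-fat diet, and every high-fat library exceeded every normal-diet library. The exact permutation test gave p = 0.0286, the smallest it can give with 4 against 4 libraries, and 0.0571 after adjustment over the 8 library values tested. The 50 most abundant genes held 33.51% of counts on the normal diet and 30.91% on the high-fat diet, with the same exact p. Genes of the longest quartile by exon length were called lower more often (15.6%) than those of the other quartiles (9.96 to 11.5%).

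**Figure D1:**
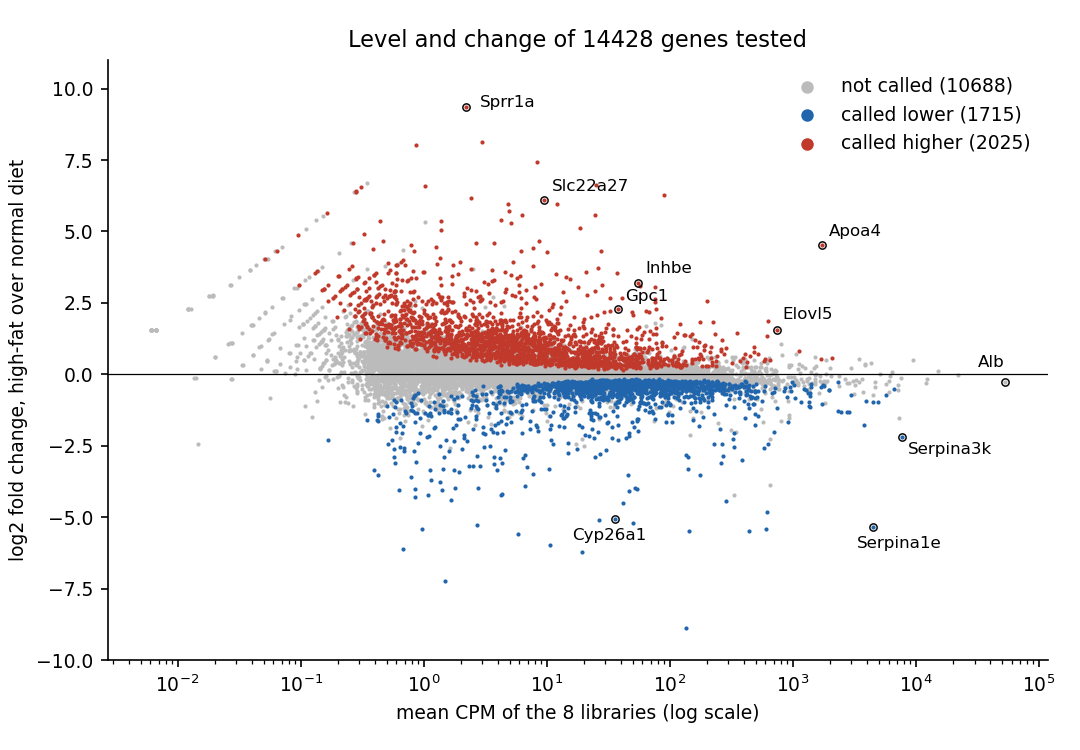
Mean CPM of the 8 libraries (x axis, log scale) against the log2 fold change of the high-fat over the normal diet (y axis) for each gene tested, with genes called higher in red, called lower in blue and others in grey. Calls to the right, at high CPM, are mostly lower, such as Serpina3k and Serpina1e, and Apoa4 and Elovl5 are exceptions among the labelled abundant genes.

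Several of the largest losses in CPM were in transcripts of plasma proteins made by hepatocytes. Serpina3k, a secreted serine protease inhibitor, stood at 12740, 14170, 11610 and 12550 CPM in normal-diet libraries 1 to 4 and at 3055, 3142, 3085 and 1943 CPM in the high-fat libraries. The log2 fold change was -2.19 ± 0.38 (adjusted p = 0.000827). The fibrinogen chains Fga (-0.97 ± 0.26), Fgb (-0.96 ± 0.26) and Fgg (-0.93 ± 0.23) fell together; these are the subunits of the clotting protein. Normal-diet library 2 was high in all 3 chains, at 10170 CPM for Fga against 4837 to 5607 CPM in the other normal-diet libraries, and high-fat libraries held 2828 to 3662 CPM. Without normal-diet library 2 the falls were smaller: Fga -0.68 (adjusted p = 0.0459), Fgb -0.72 (adjusted p = 0.0446) and Fgg -0.73 (adjusted p = 0.027). Mug1, a broad plasma protease inhibitor, fell from 3871 to 4320 CPM to 1476 to 1913 CPM (-1.32 ± 0.16). Not all secreted proteins moved: albumin (Alb) had a log2 fold change of -0.26 ± 0.22 (adjusted p = 0.416) and transferrin (Trf), the iron carrier, 0.13 ± 0.26 (adjusted p = 0.749). Per length, Alb stood at 58160 ± 2617 TPM (counts per length, scaled to the same total in each library; SD, n = 4) on the normal diet and at 59030 ± 11590 TPM on the high-fat diet, with a wider spread among high-fat livers.

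The serpin A genes, a cluster of secreted protease inhibitors, were called lower in 8 of 17 members tested (47.1%, against 11.9% of all genes) and higher in 2. Together they held 3.13 to 3.4% of counts on the normal diet and 0.939 to 1.3% on the high-fat diet (exact p = 0.0286, adjusted 0.0571). Serpina1e, an alpha-1-antitrypsin gene, showed a steep loss from a high level: 7759, 8576, 8544 and 9912 CPM on the normal diet against 57.3, 83.4, 669 and 56.1 CPM on the high-fat diet. High-fat library 3 held several times the level of the other high-fat libraries, and the fold change of -5.33 ± 1.16 became -7.05 without it. Its neighbour Serpina1c fell less, from 3171 to 4079 CPM to 941 to 1883 CPM (-1.33 ± 0.31). Copies of this cluster are near-identical, so that reads matching several of them are missing from the counts and single members are uncertain. Serpina7, which encodes thyroxine-binding globulin, went the other way, from 39.9 to 90.5 CPM to 257 to 481 CPM (2.58 ± 0.42). Major urinary protein genes, lipocalins that males excrete in urine, were called lower in 17 of 28 tested (60.7%) and higher in 0 (median -2.49), and 9 were called lower without high-fat library 4. Mup7 stood at 632 to 2157 CPM and at 6.39 to 49 CPM (-5.41 ± 1.51, adjusted p = 0.015), and Mup20, the male pheromone darcin, at 2788 to 4739 CPM and at 994 to 3785 CPM without a call (-0.69 ± 0.53, adjusted p = 0.352). These copies share reads too.

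Among the largest gains in counts were an apolipoprotein and enzymes of lipid building. Apoa4, an apolipoprotein of triglyceride-rich particles, stood at 159, 138, 160 and 111 CPM on the normal diet and at 3927, 2253, 2254 and 4773 CPM on the high-fat diet (4.54 ± 0.52, adjusted p = 3.74e-05). No other gene called higher gained as much CPM, and the groups were far apart. Elovl5, an elongase of polyunsaturated fatty acids, rose from 350 to 391 CPM to 1005 to 1219 CPM (1.55 ± 0.23). Gpam, the first enzyme of glycerolipid synthesis, rose from 168 to 218 CPM to 402 to 682 CPM (1.44 ± 0.25). The ferritin heavy chain Fth1, which stores iron, rose by less (0.52 ± 0.13) but from a higher level, 1319 to 1488 CPM. Prosaposin (Psap), the precursor of lysosomal sphingolipid activators, also rose by less (0.72 ± 0.14), from 370 to 421 CPM, a level that overlaps that of Elovl5.

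Several of the genes with the smallest p had a small spread within each diet. Gpc1, a heparan sulfate proteoglycan of the cell surface, stood at 11.7, 15.2, 11.3 and 13.7 CPM against 59.6, 71.7, 51.1 and 67.7 CPM (2.27 ± 0.14, adjusted p = 3.77e-08). Each high-fat library held more than 3 times the highest normal-diet value. Tceal8, of a family of elongation-factor-like proteins, rose from 9.65 to 12.7 CPM to 43.1 to 61.2 CPM (2.21 ± 0.21), and Ttc39a from 0.465 to 0.917 CPM to 5.08 to 11.1 CPM (3.59 ± 0.32). Ttc39aos1, named as the opposite-strand transcript of Ttc39a, held 2 to 3 counts in each normal-diet library and 26 to 44 in each high-fat library (3.58 ± 0.45), and the strand-aware counting keeps the pair apart. Falling genes included Pnp, the purine nucleoside phosphorylase, at 52.8, 55.8, 47.4 and 49.9 CPM against 27.5, 27.2, 26.3 and 22.9 CPM (-0.99 ± 0.09, adjusted p = 5.21e-06). Tmx4, a thioredoxin-like protein of the endoplasmic reticulum (32.1 to 39.8 CPM against 15.9 to 19.5 CPM), Crybg3 (-1.57 ± 0.17) and Casd1, which acetylates sialic acid (-0.72 ± 0.08), fell with equally small spread. Cyp26a1, which degrades retinoic acid, combined a small p with a large fold: 82.8, 40.5, 87.9 and 66 CPM on the normal diet against 1.29, 3, 2.33 and 1.69 CPM (-5.05 ± 0.45, adjusted p = 5.21e-06).

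Some large folds belonged to genes that were near absent on one diet. In 101 genes called higher, no normal-diet library held more than 3 counts, and in 10 genes called lower, no high-fat library did. Sprr1a, a cornified envelope protein, had 0 counts in each normal-diet library and 68, 26, 61 and 194 counts on the high-fat diet, at least 24.7-fold higher against a floor of 3 counts per library; its call was lost with no filter on low counts (adjusted p = 0.0527) and without the tumour libraries in the fit (0.0639). Rbm24, an RNA-binding splicing regulator known from muscle, had 0 counts in each normal-diet library and 40, 21, 22 and 52 counts (at least 9.8-fold higher). Sybu, a kinesin linker known from neurons, went from 1, 2, 1 and 1 counts to 47, 44, 55 and 63 (5.06 ± 0.67). In the other direction the medium-chain acyl-CoA synthetase Acsm2 went from 40, 21, 33 and 17 counts to 3, 0, 1 and 2 (-4.28 ± 0.87), and Colgalt2, a collagen galactosyltransferase, from 17, 9, 21 and 24 counts to 2, 2, 3 and 2 (-3.11 ± 0.50).

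Among genes with more counts, the organic anion transporters Slc22a27 and Slc22a29 had folds of 6.11 ± 0.62 and 5.28 ± 0.53. Slc22a27 stood at 0.467, 0.116, 0.115 and 0.382 CPM on the normal diet and at 22.5, 24.9, 10 and 18.1 CPM on the high-fat diet, and Slc22a29 at 0.115 to 0.408 CPM and 4.96 to 17.2 CPM. The Ly6 family surface protein Ly6d went from 0.763 to 1.51 CPM to 15.4 to 86.6 CPM (5.57 ± 1.07), with high-fat library 2 lowest; the call was lost in limma-voom (adjusted p = 0.0572). Adgrf1, an adhesion receptor, fell from 6.17 to 14.2 CPM to 0 to 0.749 CPM (-5.58 ± 0.62, and -7.27 without high-fat library 2). The citrate and succinate transporter Slc13a2 fell from 2.09 to 6.61 CPM to 0.161 to 0.505 CPM (-3.96 ± 0.44). Ces4a, a carboxylesterase, fell from 4.88 to 11.6 CPM to 0.145 to 0.745 CPM (-4.21 ± 0.75).

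**Figure D2:**
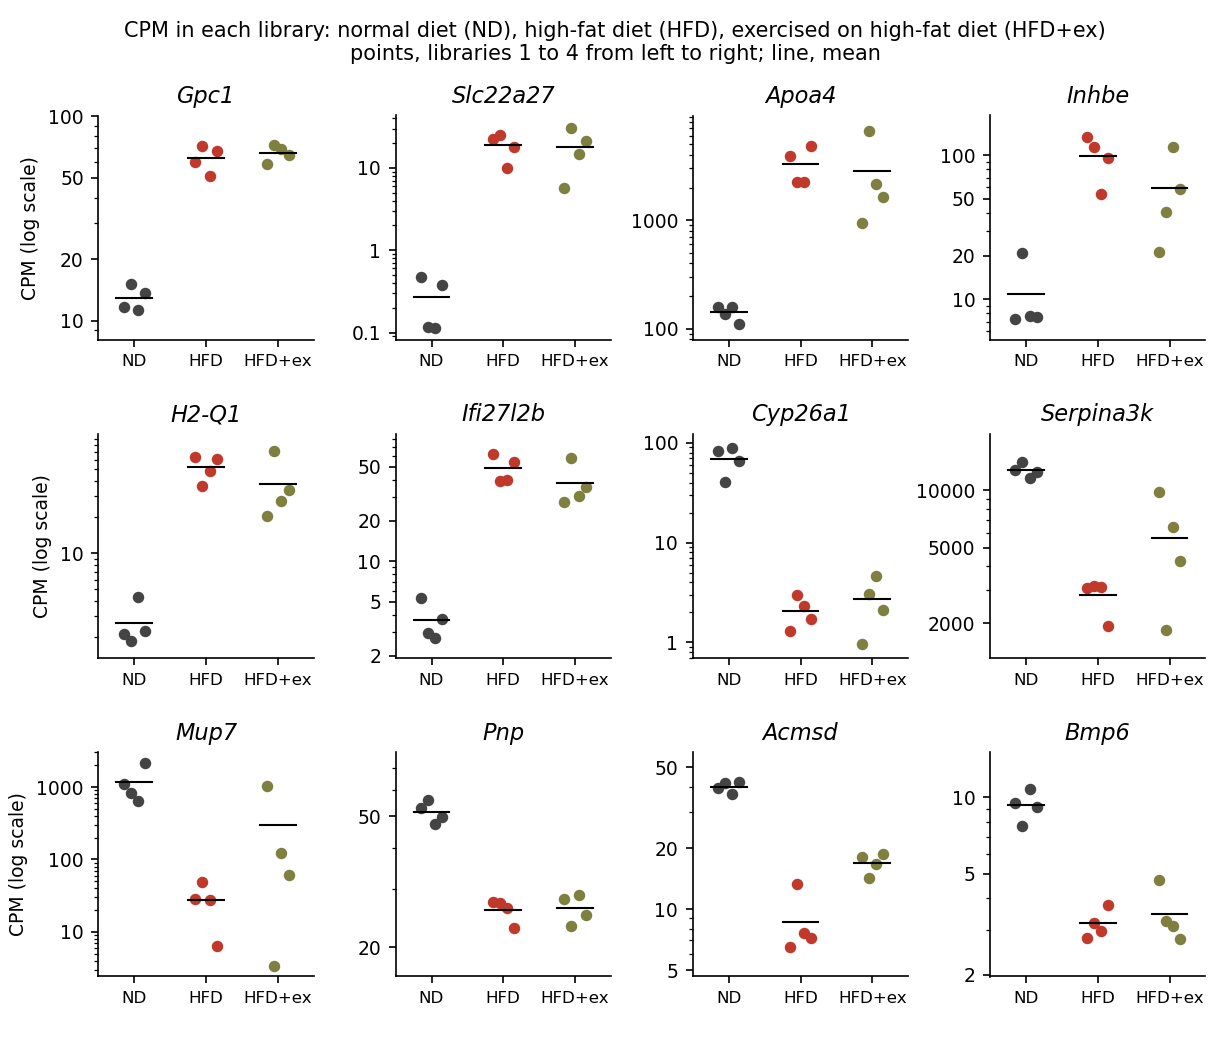
CPM (log scale, own axis for each gene) in each of the 4 libraries on the normal diet, on the high-fat diet and, for comparison, in non-tumour liver of exercised mice on the high-fat diet; the line is the mean. In the first 6 genes every high-fat library lies above every normal-diet library, and in the other 6 below, while exercised libraries spread more widely for Serpina3k and Mup7.

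Genes that changed the same way also lay side by side. Along the chromosomes, 13 runs of at least 5 neighbouring tested genes were called in 1 direction, counting only genes tested. A lower run of 8 genes held the alpha-1-antitrypsin genes described above, on chromosome 12 from 103729853 to 103980014 (GRCm39, as all gene positions here), with a median of -1.28. The longest higher runs held 6 genes each: the 6 Oas genes, which make the RNA-degrading signal of the antiviral response, on chromosome 5 from 120868398 to 121045584 (median 1.59), and a stretch of chromosome 7 from 103461731 to 104002569 with haemoglobin beta genes and antiviral Trim genes (median 0.79). A run of 5 on chromosome 17 from 34372046 to 34435295 held H2-DMb1, Psmb9, Tap1, Psmb8 and Tap2, of antigen processing (median 1.11). Tap1, which pumps peptides into the endoplasmic reticulum, stood at 15.6 to 18.7 CPM and at 35.7 to 40.9 CPM (1.11 ± 0.13, adjusted p = 3.74e-05). Genes of a run that are copies of each other share sequence, and genes of a run are not independent. The named members of runs were chosen after their values were seen, apart from the alpha-1-antitrypsin genes.

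Secreted factors of the liver were called in both directions. Of 40 tested, 10 rose (25%, against 14% of all genes) and 9 fell (22.5%, against 11.9%). Inhbe, the beta E subunit of activin and a hormone-like product of hepatocytes, stood at 7.35, 20.8, 7.68 and 7.57 CPM on the normal diet and at 135, 114, 54 and 95 CPM on the high-fat diet (3.19 ± 0.50, adjusted p = 0.000429). Fgf21, a hormone that liver releases under nutrient stress, stood at 0.117, 1.69, 0.573 and 0.191 CPM and at 11.1, 11.9, 6.55 and 10.4 CPM (3.92 ± 0.68). In both genes normal-diet library 2 was the highest of its group, and without it the fold of Fgf21 was 5.02. Bmp6, a ligand known to induce hepcidin, fell from 9.51, 7.74, 10.7 and 9.16 CPM to 2.8, 3.21, 2.98 and 3.77 CPM (-1.54 ± 0.27). Hepcidin itself (Hamp), the hormone that limits iron release, fell from 833, 1272, 991 and 877 CPM to 117, 399, 68.1 and 78.8 CPM (-2.58 ± 0.69, and -3.50 without high-fat library 2, the highest of its group). Of 26 genes of iron handling tested, 4 rose (15.4%, against 14% of all genes) and 6 fell (23.1%, against 11.9%); Ireb2, a sensor of cell iron, was at -0.45 ± 0.11. Endothelial cells are the known source of Bmp6 in liver, and their markers fell in the same libraries (4 of 9, and 1 of 9 without high-fat library 1); the part of this in the Bmp6 value was not tested.

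Some enzymes of glycogen, fructose and galactose handling rose. Of 24 tested, 9 were called higher (37.5%, against 14% of all genes) and 0 lower, with a median of 0.33 against 0.01 for all genes. The count called higher was 6 without normal-diet library 2 and 6 without high-fat library 4. The glycogen branching enzyme Gbe1 rose from 92.4 to 146 CPM to 220 to 288 CPM (adjusted p = 0.00274), glycogenin (Gyg), the primer of glycogen, by 0.94 ± 0.20, and the fructose pathway kinase Tkfc by 0.69 ± 0.15. Normal-diet library 2 was the lowest of its group for Gbe1, Gyg and Tkfc. The high-fat diet supplied less carbohydrate than the normal diet.

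Genes of one-carbon and sulfur metabolism were called lower more often than higher. Of 33 genes of methionine, folate and choline metabolism, 10 were called lower (30.3%, against 11.9% of all genes) and 1 higher. The lower count was 5 to 10 with 1 library left out: 6 without normal-diet library 1 and 5 without high-fat library 3 or 4. Ahcy, which hydrolyses S-adenosylhomocysteine, stood at 606 to 737 CPM and at 262 to 399 CPM (-1.04 ± 0.25). Cth, which makes cysteine from cystathionine, fell by 1.05 ± 0.25 and the folate enzyme Aldh1l1 by 0.84 ± 0.19 on the log2 scale. The exception was Mthfd1l, the mitochondrial formate-producing enzyme, which rose from 0.583 to 0.989 CPM to 2.89 to 6.45 CPM (2.61 ± 0.38). In the tryptophan to NAD pathway 5 of 26 genes were called lower (19.2%, against 11.9% of all genes) and 1 higher (3.85%, against 14%). The lower count was only 2 or 3 without any 1 library other than high-fat library 2. Acmsd, which diverts the pathway away from NAD, stood at 39.5, 42.1, 36.8 and 42.4 CPM and at 6.51, 13.2, 7.64 and 7.16 CPM (-2.22 ± 0.34), and Afmid, the formamidase upstream, fell from 35.4 to 54.3 CPM to 12.8 to 18.9 CPM (-1.65 ± 0.24).

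Peroxisomal genes were called lower in 10 of 60 (16.7%) and higher in 4 (6.67%), against 11.9% and 14% of all genes. Single members moved far. Abcd2, a peroxisomal importer of very long-chain and polyunsaturated fatty acids, stood at 3.79, 8.78, 7.22 and 2.99 CPM and at 41.1, 60.2, 46.2 and 54.1 CPM (3.14 ± 0.40). Hao1, the glycolate oxidase, fell from 448 to 486 CPM to 234 to 316 CPM (-0.70 ± 0.14), and the membrane protein Pxmp4 from 164 to 288 CPM to 108 to 130 CPM (-0.82 ± 0.15). In glycerolipid and phospholipid synthesis 5 of 40 rose (12.5%, near the 14% of all genes) and 2 fell (5.0%, against 11.9%). Mogat1, which makes diacylglycerol from monoacylglycerol, rose from 0.975 to 2.29 CPM to 7.3 to 16.1 CPM (2.95 ± 0.63), while the lipid phosphatase Plpp1 fell (-1.43 ± 0.20).

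Conjugating and hydrolysing enzymes moved gene by gene within families. Of 22 glutathione S-transferases, 6 rose (27.3%, against 14% of all genes) and 4 fell (18.2%, against 11.9%). Gstp1, the main one of male mouse liver, stood at 680, 435, 676 and 636 CPM and at 195, 174, 278 and 198 CPM (-1.52 ± 0.26), while Gstm2 rose from 19.5 to 35.7 CPM to 56.6 to 115 CPM (1.59 ± 0.30) and the microsomal Mgst3 from 6.34 to 11.8 CPM to 25.7 to 36.2 CPM (1.62 ± 0.34). Gst genes of a class are close copies, and single members are uncertain. Of 15 carboxylesterases, which hydrolyse esters of drugs and lipids, 5 fell (33.3%) and 1 rose (6.67%). Ces2a fell from 328 to 481 CPM to 50.9 to 104 CPM (-2.44 ± 0.27). The UDP-glucuronosyltransferases, which add glucuronic acid, were called lower in 3 of 16 (18.8%, against 11.9% of all genes) and higher in 0; Ugt2b1 stood at 1017 to 1222 CPM and at 208 to 342 CPM (-2.03 ± 0.31). Steroid dehydrogenases and reductases were called lower in 6 of 23 (26.1%) and higher in 1 (4.35%). Hsd17b2, which inactivates oestradiol and testosterone, fell from 139 to 197 CPM to 73.1 to 97.2 CPM (-0.96 ± 0.24). Srd5a3, the 1 that rose, is an enzyme of dolichol synthesis (0.57 ± 0.09). Cyp17a1, which makes androgens in the gonad, rose from 1.59 to 5 CPM to 19.6 to 40.5 CPM (3.34 ± 0.63).

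Solute carriers as a class were near the background: 35 of 252 rose (13.9%) and 32 fell (12.7%), the falls numbering 15 to 18 when library 1, 3 or 4 of either diet was left out. Amino acid carriers went both ways. Slc1a4, a carrier of serine and alanine, rose from 3.27, 2.5, 4.13 and 4.71 CPM to 17.1, 14.3, 17.3 and 20.4 CPM (2.24 ± 0.34). The glutamine carrier Slc38a2 fell from 169 to 236 CPM to 74.8 to 114 CPM (-1.02 ± 0.23) and the arginine carrier Slc7a2 from 460 to 728 CPM to 262 to 428 CPM (-0.83 ± 0.19). The prostaglandin carrier Slco2a1 stood at 77.1 to 101 CPM and at 15.6 to 26.8 CPM (-1.98 ± 0.31), and the zinc carrier Slc39a5 at 0.191 to 0.817 CPM and at 3.43 to 4.04 CPM (2.73 ± 0.61).

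Families of transcription factors were called in both directions. Of 41 nuclear receptors tested, 6 rose (14.6%, near the 14% of all genes) and 7 fell (17.1%, against 11.9% of all genes). Without normal-diet library 4 only 3 rose. Hnf4a, a core hepatocyte factor, stood at 789, 1017, 731 and 762 CPM and at 522, 564, 494 and 517 CPM (-0.65 ± 0.11). The germ cell receptor Nr6a1 fell from 15.5 to 21.1 CPM to 6.56 to 10.4 CPM (-1.11 ± 0.22). Forkhead factors were called lower in 7 of 20 (35.0%) and higher in 1; Foxa3, which opens liver chromatin, fell from 39.8 to 64.3 CPM to 20.7 to 25.7 CPM (-1.05 ± 0.23) and Foxo3, a factor restrained by insulin, from 54.2 to 95 CPM to 33.5 to 43.7 CPM (-0.95 ± 0.22). Krüppel-like factors were split, with 3 of 13 higher (23.1%, against 14%) and 4 lower (30.8%, against 11.9%). Only 2 were called lower when normal-diet library 1 or any of high-fat libraries 1, 3 and 4 was left out. Klf2, known from endothelium under flow, fell from 15.9 to 23.2 CPM to 7.02 to 8.04 CPM (-1.47 ± 0.22), and Klf10, induced by TGF-beta, rose from 6.88 to 7.33 CPM to 16.4 to 34.1 CPM (1.73 ± 0.40).

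Antiviral genes rose as a group. Of 30 interferon-stimulated genes, 23 were called higher (76.7%, against 14% of all genes) and 0 lower, with a median of 1.06. Without 1 library, 18 to 23 were called. Ifi44, an interferon-induced protein, stood at 1.63, 1.45, 1.78 and 1.34 CPM and at 8.24, 4.87, 7.05 and 7.6 CPM (2.16 ± 0.31). Usp18, which removes the ubiquitin-like Isg15 from proteins, rose from 2.69 to 5.37 CPM to 9.13 to 13.8 CPM (1.69 ± 0.27). Ifi27l2b, of an interferon-induced mitochondrial family, had one of the smallest p: 5.37, 2.97, 2.69 and 3.75 CPM against 62.4, 39, 40.2 and 54 CPM (3.73 ± 0.40, adjusted p = 2.94e-05). Marker sums of B, T and NK cells and of neutrophils overlapped between the diets and were highest in high-fat library 3, and the count without that library was 22; their part in the rise was not tested.

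Some promoters of these genes hold a short motif, and the stretches around it are shown for genes that were called higher and for Rsad2, which was not. The core letters of the interferon-stimulated response element, GAAANNGAAA, were searched on both strands in the 250 bases before the transcription start (RefSeq starts, build GRCm38.p6). A gene was counted once if any promoter listed for it held a match. The letters occurred in 3.46% of the 27025 genes with a promoter sequence and in 3.32% of the 10800 of these that were tested. Among tested genes the share was 5.24% of those called higher and 2.53% of those called lower. Of the 21 genes of the interferon-stimulated list with a promoter sequence, 12 held the letters (57.1%). A match is a description of letters and not a binding site. Below, capitals mark the motif on the gene's own strand or, reading TTTCNNTTTC, its reverse complement; each stretch runs 5′ to 3′ on the gene's strand.
Isg15: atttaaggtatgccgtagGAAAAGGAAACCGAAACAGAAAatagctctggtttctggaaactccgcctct
Oas1a: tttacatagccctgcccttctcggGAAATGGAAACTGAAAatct
Oas3: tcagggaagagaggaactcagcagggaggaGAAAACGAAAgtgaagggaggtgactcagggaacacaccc
Gbp3: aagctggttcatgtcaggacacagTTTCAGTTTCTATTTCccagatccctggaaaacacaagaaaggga
Ifit3: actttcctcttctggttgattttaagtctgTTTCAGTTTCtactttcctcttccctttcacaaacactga
Cxcl10: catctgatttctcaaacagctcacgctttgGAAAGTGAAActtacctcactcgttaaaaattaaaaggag
Rsad2: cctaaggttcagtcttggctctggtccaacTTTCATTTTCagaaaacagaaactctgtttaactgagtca

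The stretches lie at chr4:156200845-156200914 (minus strand, Isg15), chr5:120907526-120907569 (minus strand, Oas1a), chr5:120777695-120777764 (minus strand, Oas3), chr3:142559975-142560043 (plus strand, Gbp3), chr19:34583377-34583446 (plus strand, Ifit3), chr5:92349063-92349132 (minus strand, Cxcl10) and chr12:26456533-26456602 (minus strand, Rsad2). Each holds 1 to 3 matches, which overlap where there is more than 1, and all lie within 250 bases before the start. Isg15, a ubiquitin-like protein, stood at 6.65, 4.01, 3.73 and 3.62 CPM and at 14.3, 10.5, 8.19 and 8.52 CPM (adjusted p = 0.00143). Oas1a and Oas3, sensors of double-stranded RNA, had folds of 1.61 ± 0.35 and 2.10 ± 0.51, Gbp3, a GTPase of cell defence, 1.84 ± 0.33, Ifit3, an antiviral protein of the Ifit family, 1.27 ± 0.30, and Cxcl10, a T cell chemokine, 1.90 ± 0.43. Rsad2, the antiviral enzyme viperin, has the motif too but was not called, at 17, 7.27, 5.16 and 14.3 CPM against 19.7, 14.9, 11.6 and 15.8 CPM (0.51 ± 0.46, adjusted p = 0.435). The 7 genes printed were chosen after their values were seen, except Gbp3.

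Families of innate sensing and antigen display rose alongside. Of 11 Toll-like receptors, 9 rose (81.8%, against 14% of all genes) and 0 fell (median 1.39). Tlr2, a receptor of bacterial lipoproteins, stood at 1.49 to 3.08 CPM and at 4.23 to 8.04 CPM (1.41 ± 0.31). Tlr3, a receptor of double-stranded RNA, stood at 4.41 to 6.49 CPM and at 7.94 to 10.9 CPM (0.78 ± 0.14), and Tlr9, a DNA receptor, at 0.175 to 0.382 CPM and at 0.482 to 1.55 CPM (1.92 ± 0.47). MHC class I genes were called higher in 9 of 16 (56.2%) and lower in 0. H2-Q1, a non-classical member, stood at 2.1, 1.86, 4.3 and 2.23 CPM and at 63.9, 36.2, 48 and 61.6 CPM (4.31 ± 0.43, adjusted p = 1.45e-05); H2 genes are close copies, and the member is uncertain. TNF receptor superfamily genes rose in 9 of 14 (64.3%) and guanylate-binding proteins in 6 of 11 (54.5%), and 0 fell in either family. Tnfrsf19, an orphan receptor of epithelial precursors, rose from 2.04 to 3.82 CPM to 10.8 to 15.8 CPM (2.17 ± 0.33). C-type lectins were called higher in 9 of 22 (40.9%), or 5 without high-fat library 3, and lower in 2 (9.09%, against 11.9% of all genes). The fungal glucan receptor Clec7a rose from 3.56 to 5.23 CPM to 8.67 to 34 CPM (2.34 ± 0.50), and Clec2h fell from 4.71 to 18.9 CPM to 0.339 to 1.54 CPM (-3.91 ± 0.99).

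**Figure D3:**
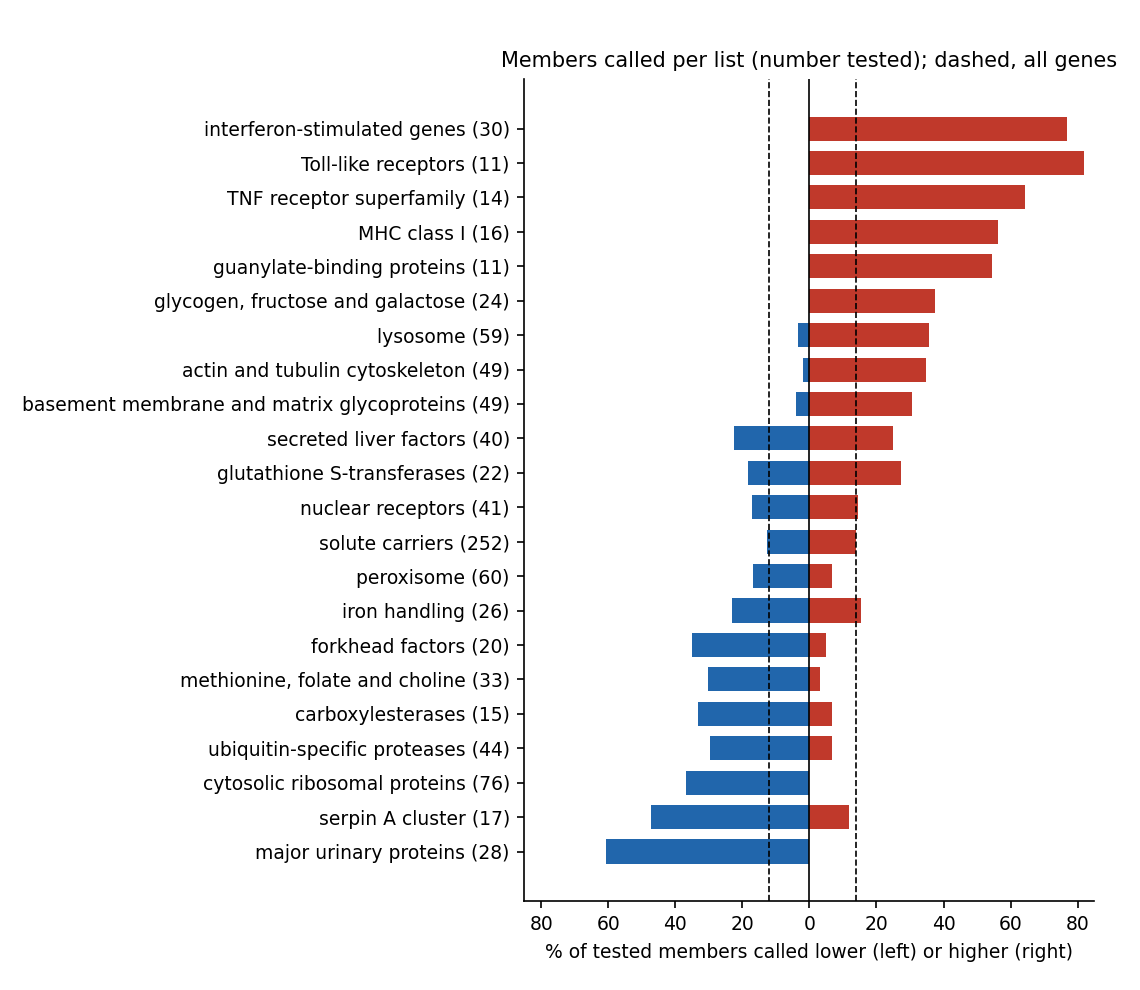
Share of tested members called higher (right, red) or lower (left, blue) in each gene list or symbol family, with the number tested in brackets; dashed lines mark the shares over all genes, 14% higher and 11.9% lower. Immune families extend far to the right and major urinary proteins, serpins and ribosomal proteins to the left, and solute carriers and nuclear receptors end near the dashed lines.

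Some macrophage markers rose in the same libraries as these families. Of 11 markers of lipid-associated or monocyte-derived macrophages, 9 rose and 0 fell, and their summed level was 42.5 to 58.7 CPM on the normal diet and 61.7 to 161 CPM on the high-fat diet, lowest in library 2. Mmp12, a macrophage elastase, stood at 0.642, 0.233, 0.688 and 0.827 CPM and at 14.4, 3.43, 18.2 and 11.5 CPM (4.31 ± 0.73), and Itgax, the CD11c integrin, at 0.63 to 1.16 CPM and at 2.3 to 8.73 CPM (2.86 ± 0.50). For the 8 Kupffer cell markers the sums were 193 to 281 CPM and 349 to 391 CPM, but only 2 were called higher (25%, against 14% of all genes) and 0 lower. Just 1 was called higher without normal-diet library 1, 3 or 4 or high-fat library 3 or 4. Cd5l, a scavenger protein of macrophages, stood at 49.9 to 72.5 CPM and 125 to 189 CPM (1.46 ± 0.41). Cd163, another marker of this list, went the other way without a call and is described below. None of the B, T, NK, neutrophil and dendritic cell markers was called higher. Ubd, the ubiquitin-like FAT10 of inflamed tissue, followed the order of the macrophage sums, with 0.64 to 0.7 CPM on the normal diet and 11.2, 2.46, 28.2 and 17.1 CPM on the high-fat diet (4.42 ± 0.88). How far changed cell numbers enter the immune families was not tested.

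Lysosomal genes were called higher in 21 of 59 (35.6%, against 14% of all genes) and lower in 2 (3.39%, against 11.9%). Hexa, a subunit of the hexosaminidase that degrades gangliosides, stood at 45 to 49.7 CPM and 66.3 to 99.5 CPM (0.85 ± 0.15). Ppt1, which strips palmitate from proteins, rose by 0.73 ± 0.11. High-fat library 2, lowest in macrophage markers, was the lowest of its group for Hexa and Ppt1.

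Matrix genes rose with the markers of activated stellate cells, the matrix-making cells of liver. Of 7 such markers 5 rose and 0 fell, and their sum was 29 to 62.1 CPM and 115 to 283 CPM. Col1a1, the alpha chain of type I collagen, stood at 7.12, 3.9, 6.02 and 4.51 CPM and at 32, 15.2, 44.3 and 57 CPM (2.78 ± 0.59), and Timp1, an inhibitor of matrix proteases, at 0 to 0.116 CPM and at 0.321 to 2.13 CPM (4.54 ± 0.94). Of 49 basement membrane and matrix glycoprotein genes, 15 rose (30.6%, against 14% of all genes) and 2 fell (4.08%, against 11.9%), with a median of 0.61. Without high-fat library 3, 9 rose, and 1 fell when library 3 of either diet, normal-diet library 4 or high-fat library 1 was left out. Lox, the enzyme that cross-links collagen and elastin, rose from 0.407 to 0.63 CPM to 1.28 to 2.66 CPM (1.98 ± 0.49), while the laminin chain Lama3 went the other way, 10.7, 8.03, 13.9 and 13 CPM against 1.35, 1.77, 1.79 and 1.11 CPM (-2.92 ± 0.41). Actin and tubulin genes rose in 17 of 49 (34.7%), or 11 without normal-diet library 2 and 9 without high-fat library 3, with 1 lower or, without some libraries, 0. Tubb6, a beta-tubulin, rose from 4.71 to 6.36 CPM to 17.1 to 23.2 CPM (1.80 ± 0.32), Capg, an actin-capping protein of macrophages, by 1.91 ± 0.33, and Anxa2, a calcium-dependent membrane binder, from 9.6 to 19.9 CPM to 89.7 to 171 CPM (3.05 ± 0.33). Of 9 sinusoidal endothelial markers 4 fell (1 without high-fat library 1) and 0 rose: their sum was 406 to 459 CPM and 235 to 367 CPM, and Kdr, the VEGF receptor, stood at 62.1 to 68.6 CPM and 22.1 to 45.6 CPM (-0.95 ± 0.19). Changed cell composition and changed expression within cells were not tested apart.

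**Figure D4:**
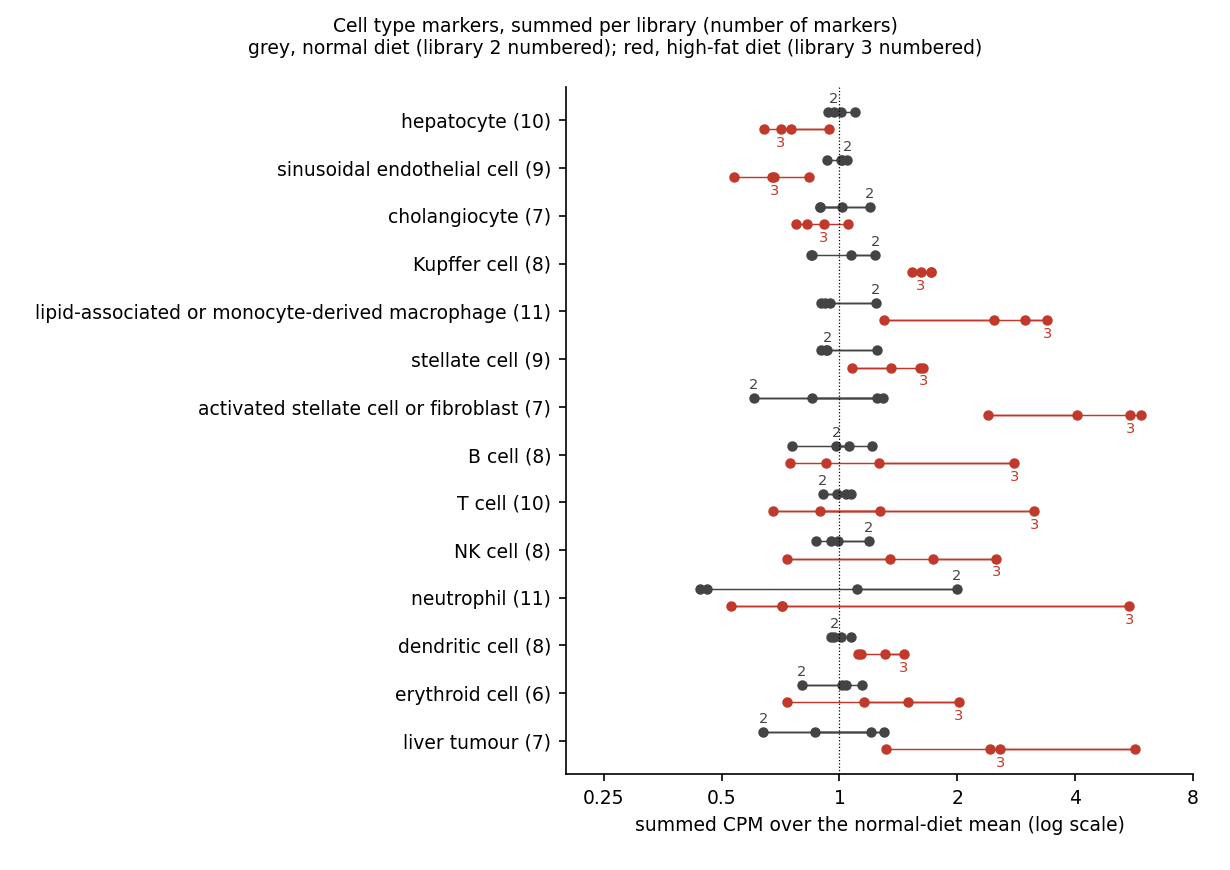
Summed CPM of each marker list in each library, divided by the mean of the normal-diet libraries (log scale), for the normal diet (grey) and the high-fat diet (red); the number of markers is in brackets. Activated stellate, Kupffer and macrophage sums of the high-fat libraries lie wholly above those of the normal diet and endothelial sums wholly below, while lymphoid and neutrophil sums overlap, with high-fat library 3 at the top.

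Markers of other cell types and tissues differed in level. Of 5 erythroid genes tested 4 rose (2 without high-fat library 3) and 0 fell, and the erythroid sum was 174 to 249 CPM on the normal diet and 160 to 439 CPM on the high-fat diet, highest in library 3. Adipocyte markers, with Lep at 0 in all 8 libraries, summed to 1.74 to 10.5 CPM and to 5.95 to 20.3 CPM, and mesothelial markers to 1.16 to 10.7 CPM and to 0 to 10 CPM, with 0 called in either list. The skeletal muscle markers summed to at most 0.168 CPM in any of the 8 libraries, and of 6 exocrine pancreas markers Cel, Cpa1, Prss2, Pnlip and Amy2a5 were at 0 in all 8. Hepatocyte markers summed to 86200 to 101000 CPM on the normal diet and to 59200 to 86700 CPM on the high-fat diet, with 5 of 10 called lower (3 without high-fat library 1 or 4), among them Cps1, the first urea cycle enzyme (-1.31 ± 0.22). The 7 liver tumour markers summed to 8.72 to 17.7 CPM and to 18 to 77.7 CPM; 2 rose, and that count fell to 0 or 1 without any of normal-diet libraries 1 to 4 or high-fat libraries 2 and 3.

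Cytosolic ribosomal protein genes were called lower by small amounts. Of 76 tested, 28 were called lower (36.8%, against 11.9% of all genes) and 0 higher, with a median of -0.30. This count depended on the setting: 9 with upper-quartile scaling, and 17, 14, 11 and 5 when normal-diet library 2, normal-diet library 4, high-fat library 2 and high-fat library 4 were left out in turn. Rpl27a stood at 85.1, 86.9, 87.1 and 98 CPM and at 65.2, 52.6, 62.5 and 48.1 CPM (-0.65 ± 0.15), and Rpl10a at 54 to 61.5 CPM and at 34.6 to 52.6 CPM (-0.45 ± 0.12). As a share of counts, ribosomal protein genes took 0.864 to 0.936% on the normal diet and 0.749 to 0.982% on the high-fat diet (exact p = 0.4). Many of these genes have processed copies that share their reads. Of 77 mitochondrial ribosomal protein genes, 10 were called lower and 0 higher (2 with upper-quartile scaling, 5 without high-fat library 4). Of 55 translation initiation factor genes, 11 were called lower (20.0%; 7 with upper-quartile scaling or without high-fat library 4) and 4 higher (2 without normal-diet library 3). Eif4ebp3, an inhibitor of cap-dependent translation, fell furthest among these, from 2.35 to 4.54 CPM to 0.194 to 0.428 CPM (-3.44 ± 0.54). Deubiquitinating proteases of the Usp family were called lower in 13 of 44 (29.5%; 8 without high-fat library 3) and higher in 3, with Usp3, which acts on histones, at 32.1 to 39.3 CPM and 22.9 to 28.4 CPM (-0.49 ± 0.08).

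High-fat livers differed among themselves most in a few genes. Spread over all genes was equal on both diets, with a median SD of log2 CPM of 0.18. Cd163, the haemoglobin scavenger receptor of resident macrophages, stood at 9.2, 17.8, 0.347 and 4.4 CPM on the high-fat diet against 23.4, 29, 15.9 and 17.2 CPM on the normal diet (-1.44 ± 0.81, adjusted p = 0.199); limma-voom called it lower (-2.42, adjusted p = 0.0408). H19, an imprinted transcript of fetal liver, stood at 0.841, 31.1, 10.9 and 6.24 CPM against 0.229 to 0.292 CPM (5.57 ± 1.83, adjusted p = 0.0331); its call was lost without any 1 of the libraries other than high-fat libraries 1 and 4 (adjusted p 0.0513 to 0.0936), and its fold was 4.54 without high-fat library 2. The neutrophil calprotectin genes S100a8 and S100a9 were high in library 3 alone among the high-fat livers, at 15.9 and 22.2 CPM against 0.856 to 2.08 CPM and 1.26 to 1.74 CPM in the others, and stood at 1.08 to 6.28 CPM and 1.97 to 9.25 CPM on the normal diet. Without that library their fold changes turned from 0.83 to -0.98 and from 0.49 to -1.66, none of them called. Egr1, an immediate early transcription factor, stood at 258, 202, 242 and 327 CPM on the normal diet and at 5.61, 12, 28.5 and 58.1 CPM on the high-fat diet (-3.30 ± 0.83, adjusted p = 0.00865, and -4.06 without high-fat library 4). The gene responds within minutes to handling and killing, and the killing time of the normal-diet mice is not given.

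**Figure D5:**
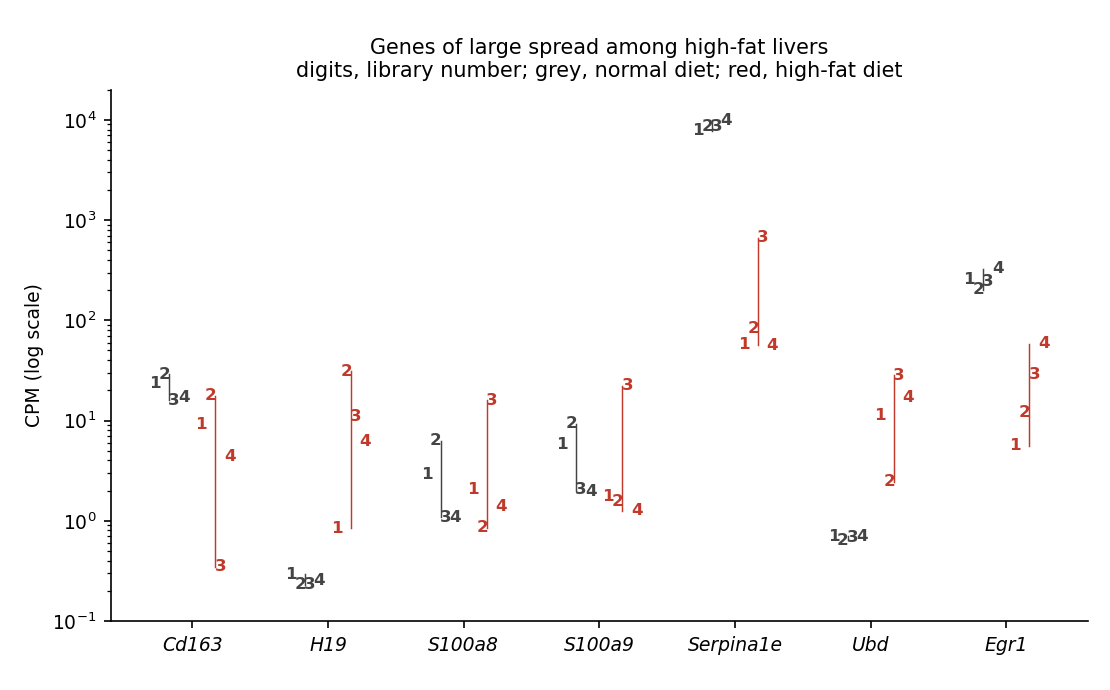
CPM (log scale) of 7 genes with large spread among the high-fat libraries, for each library (digits) on the normal diet (grey) and on the high-fat diet (red). High-fat library 3 is lowest for Cd163 and highest for S100a8, S100a9, Serpina1e and Ubd, and library 2 is highest for H19.

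Exercised mice on the same high-fat diet give a view of how these values vary in a further 4 livers. They are set against the same normal-diet libraries, so the values below are not independent of those above. Against the normal diet 2053 genes (14.2%) were called in exercised mice, and between exercised and non-exercised high-fat livers 2 genes (0.0139%). For Gpc1 the exercised libraries held 58.8, 72.1, 69.6 and 64.7 CPM and for Pnp 27.9, 23.2, 28.8 and 25 CPM, within or near the range of the non-exercised high-fat livers. Cyp26a1 stood at 0.972, 3.05, 4.64 and 2.11 CPM. Plasma protein and urinary protein genes spread more: Serpina3k stood at 9834, 1835, 6417 and 4254 CPM, Serpina1e at 3025, 57.8, 1222 and 562 CPM and Mup7 at 1022, 3.4, 123 and 61.6 CPM. In all 3, exercised library 1 was nearest to the normal diet and exercised library 2 was lowest. Exercised library 2 was the highest for Col1a1, at 6.32, 41.8, 18.4 and 6.44 CPM, and for Mmp12, at 2.86, 14.1, 4.18 and 2.11 CPM.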

How the data were processed

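Liver RNA was sequenced with a stranded mRNA kit. The tools named, per the submitters' processing notes, are STAR 2.7.11a, Subread 2.0.5 and Trim Galore 0.6.10, with build GRCm39. The deposited files hold raw counts per gene, per the file headers from featureCounts 2.0.5 over exons of GENCODE vM27 with strand setting 2; no option for reads with several matches is named there, so near-identical copies are uncertain. Replicates are the mouse numbers of the titles.

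Of 55359 gene identifiers, 14428 passed filterByExpr (minimum count 10, total 15). Counts were scaled by TMM and fitted with edgeR 4.0.16 (quasi-likelihood, robust, R 4.3.3) over all 5 groups and 20 libraries, which share one estimate of spread with 15 residual degrees of freedom. Tumour and non-tumour samples of the same mouse number entered as independent, without a term for the mouse, which can overstate these degrees of freedom. Without the tumour libraries 4423 genes were called. Log2 CPM values used a prior count of 2, whereas log2 fold changes came from the fit with edgeR's default prior count. P-values were adjusted by Benjamini-Hochberg over all genes tested. Library values were compared by two-sided exact permutation tests. The fit was tested on simulated data in which 66 or 67 of 14268 genes were changed per fold size, far fewer than were called here. It recovered 43.3% of 1.5-fold, 56.7% of 2-fold and 87.9% of 4-fold changes, and 2.34% of its calls were false. A gene not called may therefore still differ. The text names genes called with groups that do not overlap and a mean of at least 1 CPM in the 8 libraries, taken from the largest folds, smallest p, largest CPM differences and the 4 of smallest p per list or family, and beside them genes near absent on a diet, of large spread or most abundant; others are said to be chosen after their values were seen. The members and lists were chosen with earlier results of these data known. Alternatives used DESeq2 1.42.0, limma-voom (limma 3.58.1), other scalings, filters and sample sets, and each library left out. The correlations of same-numbered mice across diets were -0.0165, -0.03, 0.00795 and 0.0547, so numbers do not pair the samples. Some genes are not reported here.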

Additional observations from a re-analysis of the deposited data

Results flagged for a closer look

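In 19 of 260 groups of 4 libraries tested (named genes and library values in each diet), 1 library lay far from the others by Dixon's criterion. For groups picked without regard to their values, chance gives about 1 in 20, or 13. Some of the genes were named for their spread or after a library was seen to differ, and some vary together. The 19 therefore cannot be weighed against that rate. Normal-diet library 2 held 6 of the 19. In it Cyp4a14 was at 2140 CPM, Fga at 10200, Fgb at 8730, Inhbe at 20.8, Ahcy at 737 and Sybu at 0.116 CPM, each above the other normal-diet libraries. Normal-diet library 1 was highest for 3 antiviral genes, Usp18 at 5.37, Isg15 at 6.65 and Oas1a at 1.75 CPM. In normal-diet library 3, H2-Q1 stood high at 4.3 CPM, and in normal-diet library 4 Rpl27a stood high at 98 CPM and Elovl5 low at 350 CPM.

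Among high-fat libraries, library 2 was highest for Hamp at 399 CPM, Acmsd at 13.2 CPM and Adgrf1 at 0.749 CPM, 3 genes that fell with the high-fat diet. Library 3 was highest for Serpina1e at 669 CPM, S100a8 at 15.9 CPM and S100a9 at 22.2 CPM, and library 4 was lowest for Serpina3k at 1940 CPM.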

How the results depend on the processing

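The numbers of genes called, called higher and called at least 2-fold in either direction stayed within 1.5 times their values under RLE and upper-quartile scaling, DESeq2, limma-voom, no filter or a filter of 1 CPM in 4 libraries, fits of only the 8 libraries or without the tumour libraries, and without any 1 library (2713 to 3616 called, 1477 to 2016 higher). Upper-quartile scaling gave 1140 genes lower in place of 1715 and 68.8% of calls higher; the cause was not tested. With the mouse number as replicate block, which can be fitted with the 8 libraries, 4069 genes were called, 2250 higher and 1819 lower, and no sample correlated best with the sample of its own number. The difference in the albumin share of counts (-0.1111 percentage points, exact permutation p = 0.886) ranged from -0.4216 to 0.3053 without 1 library, and was 0.01561 without normal-diet library 1. Of 123 genes named, 114 were called, and 110 of these kept their call wherever a value was had. Calls were lost in limma-voom for H2-DMb1, Ly6d and H19, without a filter or the tumour libraries for Sprr1a and H19, and without 1 library for H19. Directions turned in 3 uncalled genes: Cyp4a14 (0.97 in limma-voom, 1.07 with the replicate block, and from -0.70 to 2.00 without 1 library), S100a9 (-0.37 in limma-voom, -0.40 with the replicate block and from -1.66 to 1.003 without 1 library) and S100a8 (from -0.98, without high-fat library 3, to 1.55). Counts of 5 or fewer in the lists printed above moved by up to 3 when single libraries were left out. Shares and detection use no scaled level, so scaling was not varied for them. Of genes under 1 CPM 4.22% were called lower, and of genes at 1 to 10 CPM 4.83%; how far depth limits these calls was not tested.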
